A study of Mus musculus with 2 samples.

Results

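Fatty acid and triglyceride synthesis was followed through 34 listed genes out of 23283 gene rows in the deposited table. They run from the regulators of the pathway through citrate export and palmitate synthesis to the enzymes that finish triglyceride. A gene was included if its symbol equalled the gene column of the table, and all 34 were found. Rows with a failed status were set aside, which removed 2 genes, Scd1 and Lpin1, and left 32. The groups were livers of male C57Bl/6 mice aged 6 months, labelled Akt1F/F;Akt2-/-;Alb-Cre or Akt1F/F:Akt2-/-, so both carried floxed Akt1 alleles and lacked Akt2 in every tissue. Alb-Cre is a recombinase under the albumin promoter, which acts mainly in hepatocytes, and cells in which it is not active keep the floxed alleles. Livers were perfused, and the mRNA of 4 livers was pooled for each genotype, giving 1 Alb-Cre library and 1 control library. The comparison sets livers with the added hepatocyte deletion of Akt1 against livers that lack Akt2 alone. No value has a replicate or an error, so each difference compares 2 pooled libraries and carries no test of the genotypes.

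In the liver, carbon from glucose leaves the mitochondrion as citrate, is split to acetyl-CoA, carboxylated to malonyl-CoA and built into palmitate, which is then elongated, desaturated and joined to glycerol. Insulin promotes these steps through Akt, which raises the amount and processing of the transcription factor SREBP1, while glucose acts through the factor ChREBP. SREBP precursors are held in the endoplasmic reticulum by Insig proteins when sterols are plentiful or insulin is low.

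Levels are in FPKM, a fragment count set relative to the length of the transcript and to the library total, so they can be compared between genes. Differences are log2 ratios, the Alb-Cre level plus 1 FPKM over the control level plus 1 FPKM, a form that shrinks the ratio of low genes. Genes counted as measured had an OK status and at least 1 FPKM in 1 library or both, and the limit for a call was 2-fold. Akt1 had 17.1 FPKM in the Alb-Cre library and 23.7 FPKM in the control library, and Akt2 had 33.5 against 37.5 FPKM. These whole-gene values do not show whether the targeted exons were removed, and say little on whether the labels are right. Of 22 hepatocyte markers 17 were measured, summing to 20761 FPKM in the Alb-Cre library and 23218 FPKM in the control library, with a median log2 ratio of -0.16. The other 5, among them albumin, had the status HIDATA and no usable level. Tat, a tyrosine-degrading enzyme gene, was the one hepatocyte marker past 2-fold, at 1883 FPKM in the Alb-Cre library and 874 FPKM in the control library, and Foxa2 had 10.9 against 20.8 FPKM. Of 6 cholangiocyte markers 2 were measured, Sox9 at 1.21 against 1.66 FPKM and Spp1 at 30.5 against 30.3 FPKM. Over all 11406 measured genes the median log2 ratio was -0.06, and it was -0.13 over 4964 well-expressed genes, those of at least 10 FPKM in each library.

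Of the 32 synthesis genes, 3 were at least 2-fold lower in the Alb-Cre library, against 1.83% of all measured genes, and 2 were at least 2-fold higher, against 3.75%. The 3 lower genes were Thrsp, Me1 and Srebf1, and the 2 higher genes were Scd2 and Pnpla5. With ratios centred on the genes of 10 FPKM or more, the shares of all measured genes became 1.39% lower and 4.94% higher, so that 78.0% of called genes were higher in place of 67.2%. At a 1.5-fold limit, 11 synthesis genes were lower, against 5.8% of all measured genes, and 3 were higher, against 8.87%. These counts include Pnpla5 and Pnpla3 on the higher side and Mogat1 on the lower side, whose ratios had to take that sign because each reached 1 FPKM in 1 library alone, so the counts are a description. The median log2 ratio of the 32 genes was -0.40 and their mean was -0.24. Values lay below 0 for 23 of them (71.9%), against 58.8% of all measured genes, and below the median of the well-expressed genes for 20 of them (62.5%), against 39.3% of all measured genes. A bulk library cannot tell fewer cells of a type from less RNA per cell.

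**Figure D1:**
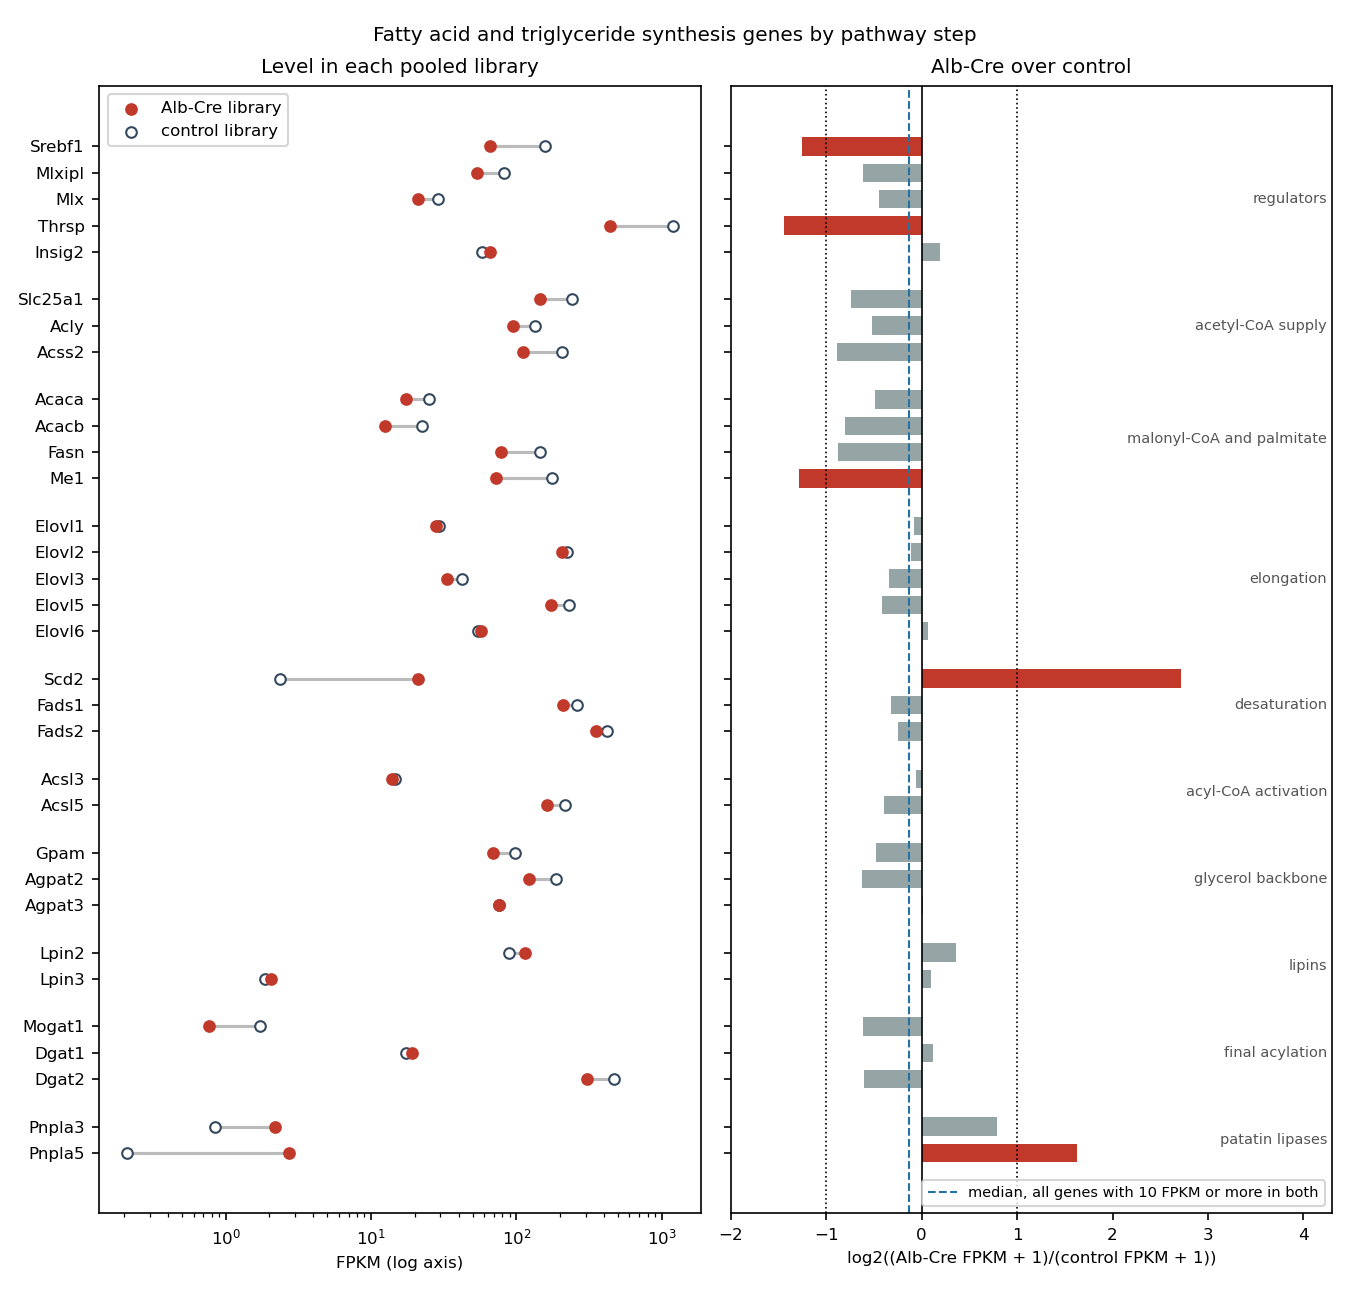
Left, FPKM on a log axis for the 32 measured synthesis genes, as filled points in the Alb-Cre library and open points in the control library. Right, log2 ratio in pathway order, with dotted lines at the 2-fold limits and a dashed line at -0.13, the median of the well-expressed genes; the 5 coloured bars are Srebf1, Thrsp, Me1, Scd2 and Pnpla5.

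Among the regulators, Srebf1 and Thrsp were lower in the Alb-Cre library and Insig2 was not. Srebf1 encodes SREBP1, the main transcription factor of fatty acid synthesis, and lies on mm10 chromosome 11 from 60199089 to 60222581. It had 65.6 FPKM in the Alb-Cre library and 158 FPKM in the control library, a log2 ratio of -1.25. Thrsp, on chromosome 7 from 97412938 to 97417730, encodes a small hepatic protein that promotes lipogenesis. Its level was 440.4 FPKM in the Alb-Cre library and 1199.7 FPKM in the control library, a log2 ratio of -1.44. In both libraries Thrsp had the highest level of the 32 genes, and its ratio was the lowest. Mlxipl, which encodes ChREBP, had 53.7 FPKM in the Alb-Cre library and 82.7 FPKM in the control library (log2 ratio -0.61). Its dimer partner Mlx had 21.0 FPKM in the Alb-Cre library and 29.0 FPKM in the control library (-0.45). Both ChREBP components thus lay between the 2-fold limits, with ratios below the median of well-expressed genes. Insig2, which retains the SREBP precursor in the endoplasmic reticulum, had 66.1 FPKM in the Alb-Cre library and 57.7 FPKM in the control library (0.19).

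Gene pairs at the head of the pathway differed in balance, a comparison in which the scaling of a library cancels. Insig2 made up 28.8% of the summed Insig1 and Insig2 FPKM in the Alb-Cre library and 14.7% in the control library. The gene for the related factor SREBP2, Srebf2, which is known mainly for sterol synthesis, had 16.6 FPKM in the Alb-Cre library and 15.9 FPKM in the control library. Srebf1 therefore made up 79.8% of the SREBP sum in the Alb-Cre library and 90.8% in the control library. The Srebf1 row gives 1 value for the gene and does not separate transcripts of different start sites. Its deposited locus, from 60105012 to 60220604, is also the one given for Rai1, and it stops short of the annotated gene end at 60222581. Of the exonic bases of Srebf1, 3.11% overlap Rai1 on the opposite strand. Rai1 had 1.89 FPKM in the Alb-Cre library and 1.55 FPKM in the control library. Mlx overlaps Psmc3ip in the same manner over 19.3% of its exonic bases, and Psmc3ip was under 1 FPKM in both libraries. Strand use is not stated for the counting, so reads from such overlaps cannot be assigned.

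Promoters are shown for Srebf1 and Thrsp, the 2 regulators past the limit, and for Fasn, the enzyme that builds palmitate. Sequences are from RefSeq on GRCm38.p6, from 250 bases before to 50 bases after an annotated start, and 28 of the 34 genes had a window. Capitals mark matches on either strand to CCAAT, the site of the factor NF-Y, or to TGACC and TAACC with 5 bases between them, spaced like the direct repeat that LXR, the oxysterol receptor, binds. The last pattern was set after the sequences had been seen. The Srebf1 window is the most downstream of 3 annotated starts and lies at chr11:60210422-60210721 on the minus strand. Neither window at the other Srebf1 starts holds the TGACC and TAACC pattern. The Fasn window lies at chr11:120824498-120824797 and the Thrsp window at chr7:97417501-97417800, both on the minus strand.
Srebf1: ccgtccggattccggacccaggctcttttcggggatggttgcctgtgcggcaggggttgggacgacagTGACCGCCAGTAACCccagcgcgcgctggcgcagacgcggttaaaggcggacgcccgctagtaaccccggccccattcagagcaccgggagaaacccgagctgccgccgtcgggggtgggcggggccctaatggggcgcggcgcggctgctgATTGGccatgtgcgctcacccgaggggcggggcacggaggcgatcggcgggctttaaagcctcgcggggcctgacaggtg
Fasn: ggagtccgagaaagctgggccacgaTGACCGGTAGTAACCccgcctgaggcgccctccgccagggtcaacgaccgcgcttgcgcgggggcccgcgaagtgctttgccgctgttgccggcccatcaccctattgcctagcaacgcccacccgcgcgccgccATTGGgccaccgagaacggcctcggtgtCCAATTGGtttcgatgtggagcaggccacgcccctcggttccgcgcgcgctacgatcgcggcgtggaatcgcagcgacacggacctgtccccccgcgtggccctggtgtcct
Thrsp: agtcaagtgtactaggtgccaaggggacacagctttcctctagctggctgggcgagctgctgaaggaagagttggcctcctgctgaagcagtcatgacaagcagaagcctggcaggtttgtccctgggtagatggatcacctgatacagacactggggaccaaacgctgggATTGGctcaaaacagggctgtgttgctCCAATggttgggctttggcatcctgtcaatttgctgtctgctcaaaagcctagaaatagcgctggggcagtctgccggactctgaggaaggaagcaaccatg

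The TGACC and TAACC pattern stood in 3 of the 40 windows of synthesis genes, those of Srebf1, Fasn and Acsl3. It stood in 0.0487% of all 32851 windows. Because that pattern was set after the sequences had been seen, these shares are not a fair comparison. In the window of Srebf1 its first base lay at -182 from the start, and in that of Fasn at -225. With 4 bases between its parts it was found in 0 windows of synthesis genes and in 7 of all windows. CCAAT stood in 52.5% of the windows of synthesis genes and 37.4% of all windows. CACGTG, the E-box that many basic helix-loop-helix factors read, was in 17.5% of the windows of synthesis genes and 7.15% of all windows; the 7 genes with it were Elovl5, Lpin2, Lpin3, Mlx, Mlxipl, Pnpla5 and Slc25a1. Of those 7 genes, Pnpla5 (1.63) passed the minimum through the Alb-Cre library alone, which fixed the sign of its ratio. The others lay on both sides of 0, from Slc25a1 at -0.74 to Lpin2 at 0.36. TCACNCCAC, a form of the sterol response element, was found in 1 gene, Mlxipl, and in 1.24% of all windows. A match describes letters only.

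The 3 genes that supply acetyl-CoA are well expressed, and all had ratios below the median of such genes. So did 39.3% of all measured genes and, by definition, 50% of well-expressed genes. None of the 3 passed the 2-fold limit. Slc25a1, the carrier that exports citrate from the mitochondrion, had 146 FPKM in the Alb-Cre library and 243 FPKM in the control library (log2 ratio -0.74). ATP citrate lyase, Acly, which splits that citrate, had 94.1 FPKM in the Alb-Cre library and 135 FPKM in the control library (-0.52). Acetyl-CoA can also be made from acetate by Acss2, whose level was 111 FPKM in the Alb-Cre library and 207 FPKM in the control library (-0.89). Of the 3 ratios, that of the acetate route was the lowest.

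Palmitate synthesis and its NADPH supply held the third gene past the limit. Malic enzyme Me1, which makes NADPH for fatty acid synthesis, lies on chromosome 9 from 86581371 to 86695953. It had 72.1 FPKM in the Alb-Cre library and 177 FPKM in the control library, a log2 ratio of -1.29. Fasn, the synthase that builds palmitate, had 78.9 FPKM in the Alb-Cre library and 146 FPKM in the control library (-0.88). The carboxylases that make malonyl-CoA were present at similar levels. Acaca, the cytosolic form, had 17.4 FPKM in the Alb-Cre library and 24.9 FPKM in the control library (-0.49). Acacb, the form at the mitochondrial surface whose product restrains fatty acid import, had 12.5 FPKM in the Alb-Cre library and 22.5 FPKM in the control library (-0.81). Acaca made up 58.3% of the carboxylase sum in the Alb-Cre library and 52.5% in the control library.

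From acetyl-CoA supply to palmitate, 7 of 7 genes had ratios below -0.13, the median of well-expressed genes, and all 7 were well expressed themselves. Below that median lay 39.3% of all measured genes and, by definition, 50% of well-expressed genes. At least 1.5-fold lower were 5 of the 7, against 5.8% of all measured genes and 407 of the 4964 well-expressed genes. Some of these transcripts share sequence with other genes. Of the 50-base stretches of the longest Acaca transcript in GENCODE vM21, 52.6% also occur in Gm5182, and 32.8% of those of Me1 occur in other genes, mostly in Gm7049. Neither Gm5182 nor Gm7049 has a row under its name in the deposited table. How the authors' counting treated reads from shared stretches is not given in the sources used here, so the values of Acaca and Me1 are uncertain. The share of such stretches was 8.31% for Acss2 and 0% for Fasn, Acacb, Acly and Slc25a1.

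Among the 5 elongation genes, 0 passed the 1.5-fold limit. Of all measured genes, 5.8% passed it on the lower side and 8.87% on the higher side. A count of 0 of 5 therefore does not set this step apart. Elovl6, which extends palmitate to stearate and is known as an SREBP1 target, had 57.1 FPKM in the Alb-Cre library and 54.4 FPKM in the control library (log2 ratio 0.07). For the elongases of polyunsaturated chains, Elovl5 had 173 FPKM in the Alb-Cre library and 231 FPKM in the control library (-0.42), and Elovl2 had 206 against 222 FPKM (-0.11). Elovl3, which acts on saturated and monounsaturated chains and is known as male-biased in mouse liver, had 33.1 FPKM in the Alb-Cre library and 42.1 FPKM in the control library (-0.34). Elovl1, an elongase of very long saturated chains, had 28.0 FPKM in the Alb-Cre library and 29.5 FPKM in the control library (-0.08). The ratios of Elovl1 and Elovl2 changed sign, to 0.06 and 0.02, with centred ratios. Within the elongase sum, Elovl2 made up 41.4% in the Alb-Cre library and 38.3% in the control library, and Elovl5 made up 34.8% against 39.9%. The order of the top pair was thus different in the libraries, by a margin for which no error is known.

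Scd2 had the highest log2 ratio of the 32 genes with 1 FPKM added, while with 0.1 FPKM added that of Pnpla5 was higher, at 3.20 against 3.11 for Scd2. Stearoyl-CoA desaturases place the first double bond in saturated chains, and Scd1 is the main form of adult mouse liver, while Scd2 is known from brain and from the fetal liver. Scd2, on chromosome 19 from 44293674 to 44306864, had 21.1 FPKM in the Alb-Cre library and 2.36 FPKM in the control library. That is a log2 ratio of 2.72, or 8.97-fold with no FPKM added. At the depth estimated from the lowest values of the table, these levels stand for about 15530 fragments in the Alb-Cre library and about 1520 in the control library. In the authors' deposited table Scd2 was the single gene of the 32 called different, with a q-value of 0.0109, where 0.754% of all measured genes were called.

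The level of Scd1 is unknown: its row has the status HIDATA, given where a locus holds too many fragments, and shows 0 for both libraries. For that reason the balance of Scd1 and Scd2 cannot be computed. The transcripts are related, and 2.68% of the 50-base stretches of Scd2 occur also in Scd1. The other copies of the cluster were under 1 FPKM. Scd4 had 0.219 FPKM in the Alb-Cre library and 0.631 FPKM in the control library, and Scd3 had 0.209 against 0.369 FPKM. The deposited loci of Scd2 and Scd1 lie 87.6 kb apart, with Scd2 on the plus strand and Scd1 on the minus strand.

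Every macrophage marker was higher in the same library. All 14 were measured and none had a ratio below 0.52. At least 2-fold higher were 9 of them, against 3.75% of all measured genes. These were Lyz2, Marco, C1qa, C1qb, C1qc, Cd5l, Cd14, Lgals3 and Cd68. The 14 markers summed to 506 FPKM in the Alb-Cre library and 207 FPKM in the control library. Marco, a scavenger receptor gene, had 9.74 FPKM in the Alb-Cre library and 1.77 FPKM in the control library, and Cd14, the lipopolysaccharide receptor gene, had 6.55 against 1.14 FPKM. The 12 stellate and endothelial markers summed to 272 FPKM in the Alb-Cre library and 175 FPKM in the control library, with a median ratio of 0.49. Lyve1 was at least 2-fold higher, at 4.11 against 1.11 FPKM, and Dcn, the decorin gene, had 155 against 91.5 FPKM. Stab2, an endothelial scavenger receptor gene, was the 1 marker of the 12 with a ratio below 0, at 0.980 FPKM in the Alb-Cre library and 2.27 FPKM in the control library (-0.72). Adipocyte markers Adipoq, Plin1 and Lep were each under 0.01 FPKM in both libraries. Of the 8 genes of that list 3 were measured: Fabp4 had 25.4 FPKM in the Alb-Cre library and 11.8 FPKM in the control library, Cidea had 0.105 against 1.54 FPKM, and Cfd was listed at 0 against 6.70 FPKM. The part of other cells in the Scd2 value was not tested.

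The desaturases of polyunsaturated synthesis were among the most abundant genes of the pathway and lay close to the rest of the liver transcripts. Fads2, the delta-6 desaturase, had 353 FPKM in the Alb-Cre library and 420.1 FPKM in the control library (log2 ratio -0.25). Fads1, the delta-5 desaturase, had 211 FPKM in the Alb-Cre library and 263 FPKM in the control library (-0.32). Their balance was nearly the same in the libraries, with Fads2 at 62.2% of the summed Fads FPKM in the Alb-Cre library and 61.2% in the control library.

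**Figure D2:**
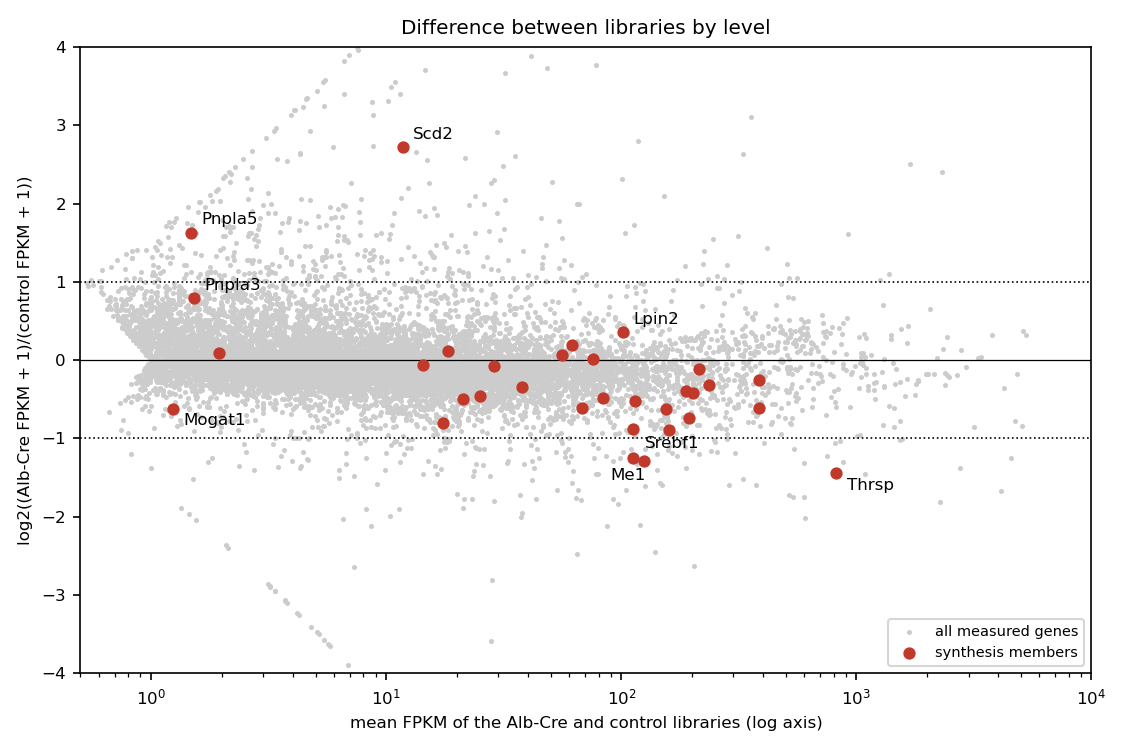
Log2 ratio (Alb-Cre over control) against the mean FPKM of the libraries on a log axis, for all measured genes in grey and the 32 synthesis genes in colour, with dotted lines at the 2-fold limits. The axes show 11356 of 11406 measured genes; Scd2 and Pnpla5 lie above the upper limit, and Srebf1, Me1 and Thrsp below the lower one.

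Ratios were also read by level. Of the 10 synthesis genes with a mean of 150 FPKM or more, the median log2 ratio was -0.51, and the 688 measured genes of that level had a median of -0.12. For the 10 with a mean of 50 to 150 FPKM the median was -0.50, beside -0.17 for the 991 measured genes of that level. The 8 at 10 to 50 FPKM had a median of -0.21, beside -0.13 for 3657 genes. Only 4 synthesis genes had a mean under 10 FPKM (Lpin3, Mogat1, Pnpla3 and Pnpla5). Of these 4, Mogat1, Pnpla3 and Pnpla5 reached the minimum in 1 library alone, which fixed the sign of their ratios, so no median is set against other genes of that level. Restricted to the 27 synthesis genes that are well expressed by this limit, a set that leaves out Scd2, the median was -0.45 and 22 lay below 0 (81.5%), against 69.3% of all 4964 genes of that kind.

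Acyl-CoA synthetases, which activate fatty acids for further use, differed from one another. Acsl5 had 163 FPKM in the Alb-Cre library and 215 FPKM in the control library (log2 ratio -0.39), and Acsl3, the form of lipid droplets and the endoplasmic reticulum, had 14.0 against 14.6 FPKM (-0.06). The ratio of Acsl3 became 0.07 with centred ratios. The related genes not among the 34 gave the widest contrast: Acsl1, the main hepatic form, had 187 FPKM in the Alb-Cre library and 375 FPKM in the control library (-1.003), whereas Acsl4, which prefers arachidonate, had 59.1 against 27.8 FPKM (1.06). As shares of the family sum, Acsl1 was 44.1% in the Alb-Cre library and 59.3% in the control library, Acsl4 was 14.0% against 4.40%, and Acsl5 was 38.6% against 33.97%.

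The glycerol backbone enzymes were split between forms. Gpam, the mitochondrial acyltransferase that starts glycerolipid synthesis, had 69.5 FPKM in the Alb-Cre library and 97.3 FPKM in the control library (log2 ratio -0.48). Agpat2, which adds the second acyl chain to make phosphatidate, had 121 FPKM in the Alb-Cre library and 188 FPKM in the control library (-0.63). Its relative Agpat3 had 76.5 FPKM in the Alb-Cre library and 75.6 FPKM in the control library (0.02). Agpat2 therefore made up 57.5% of the Agpat1 to Agpat5 sum in the Alb-Cre library and 68.3% in the control library, and Agpat3 made up 36.3% against 27.5%. Gpam kept a near equal share of its own family, 53.6% in the Alb-Cre library and 54.3% in the control library.

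Lipins remove phosphate from phosphatidate to give diacylglycerol, and both measured members had ratios above 0. Lpin2 had 115 FPKM in the Alb-Cre library and 89.2 FPKM in the control library (log2 ratio 0.36), and Lpin3 had 2.05 against 1.85 FPKM (0.10). Lpin1, also a coactivator of fatty acid oxidation genes, was listed at 0 in the Alb-Cre library and at 52.8 FPKM in the control library with the status FAIL, so no lipin balance can be given.

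In the last acylation, the 2 diacylglycerol acyltransferases had ratios on either side of 0. Dgat2, the form linked to newly made fatty acids, had 307 FPKM in the Alb-Cre library and 466 FPKM in the control library (log2 ratio -0.60). Dgat1, the form linked to re-esterification of fatty acids from outside, had 19.0 FPKM in the Alb-Cre library and 17.5 FPKM in the control library (0.12). Dgat2 remained 94.2% of the pair in the Alb-Cre library, against 96.4% in the control library. Mogat1, which makes diacylglycerol from monoacylglycerol, had 0.765 FPKM in the Alb-Cre library and 1.71 FPKM in the control library (-0.62), and passed the minimum through the control library alone. Its relative Mogat2 had 1.24 FPKM in the Alb-Cre library and 0.316 FPKM in the control library. The sum of both was 2.01 FPKM in the Alb-Cre library and 2.02 FPKM in the control library, of which Mogat1 was 38.1% against 84.4%. At such levels Mogat1 stands for about 130 fragments in the Alb-Cre library and about 250 in the control library, and 12.8% of its exonic bases overlap another gene, BC035947, on the opposite strand.

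**Figure D3:**
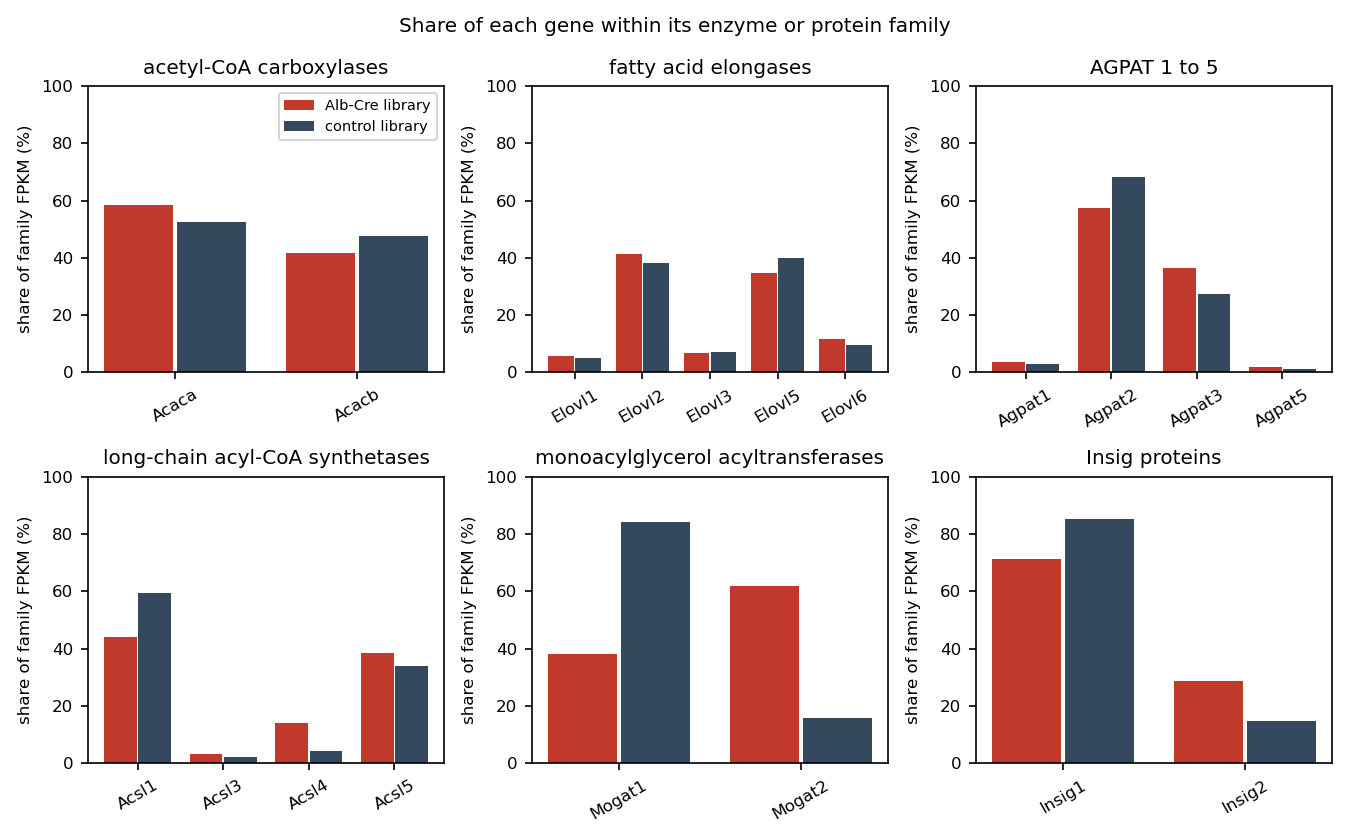
Share of each gene in the summed FPKM of its family, in percent, for 6 families, as bars for the Alb-Cre library and the control library beside each other; genes under 1% in both are left out. Among the wider differences are those of Mogat1 (38.1% in the Alb-Cre library and 84.4% in the control library), Acsl1 (44.1% and 59.3%) and Insig2 (28.8% and 14.7%).

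Both patatin family genes had values above 0, from low levels. Pnpla3, a lipid droplet lipase whose mouse gene is known as an SREBP1 target, had 2.20 FPKM in the Alb-Cre library and 0.848 FPKM in the control library (log2 ratio 0.79, or 2.59-fold with no FPKM added). Pnpla5, a related lipase, had 2.73 FPKM in the Alb-Cre library and 0.208 FPKM in the control library (1.63, or 13.1-fold with no FPKM added). The estimated fragments were about 800 in the Alb-Cre library and 54 in the control library for Pnpla5, and about 390 and 130 for Pnpla3. Both passed the minimum of 1 FPKM through the Alb-Cre library alone, so the sign of their ratios was fixed by that limit. Neither was called in the authors' deposited table, which gives a q-value of 0.194 for Pnpla5 and of 0.915 for Pnpla3.

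These genes lie beside each other on chromosome 15, Pnpla5 from 84112356 to 84123175 and Pnpla3 from 84167837 to 84187236. Their other neighbours were looked up after the values were seen. Samm50, a mitochondrial outer membrane assembly gene, had 118 FPKM in the Alb-Cre library and 87.1 FPKM in the control library (log2 ratio 0.43). Parvb, which encodes a focal adhesion protein, had 1.49 FPKM in the Alb-Cre library and 1.09 FPKM in the control library (0.25). On the other side, Sult4a1 was under 1 FPKM in both libraries and so does not count as measured. It had 0.604 FPKM in the Alb-Cre library and 0.0161 FPKM in the control library, a log2 ratio of 0.66. With no FPKM added that is 37.4-fold, a value that rests on a control level near 0.

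Genes of the same pathways outside the 34 were read as lists. Of all measured genes, 1.83% passed the 2-fold limit on the lower side and 3.75% on the higher side. A count of 0 in so short a list does not set it apart. Of 16 other genes of fatty acid synthesis and elongation, 11 were measured and 0 passed the 2-fold limit, with a median log2 ratio of -0.26. The lowest was Mid1ip1, a relative of Thrsp that promotes acetyl-CoA carboxylase assembly, at 39.5 FPKM in the Alb-Cre library and 79.8 FPKM in the control library (-0.995). Hsd17b12, the ketoreductase of the elongation cycle, had 86.5 FPKM in the Alb-Cre library and 138 FPKM in the control library (-0.67). Of 10 other acyl-CoA synthetases, 7 were measured, with 1 higher and 1 lower and a median of -0.08. Of 13 other glycerolipid genes, 12 were measured and 0 passed the limit. That list had a median of 0.13, which was -0.39 with a minimum of 5 FPKM. Gpd1, which makes glycerol 3-phosphate, had 111 FPKM in the Alb-Cre library and 188 FPKM in the control library (-0.76).

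Of 16 genes that bring carbon and NADPH to the pathway, 15 were measured, with a median log2 ratio of -0.24. At least 2-fold lower were 2 of the 15, against 1.83% of all measured genes. On the higher side there were 0, against 3.75%. One of the lower genes was Pklr, liver pyruvate kinase, at 101 FPKM in the Alb-Cre library and 217 FPKM in the control library (-1.09). The NADPH sources outside Me1 varied: cytosolic Idh1 had 211 FPKM in the Alb-Cre library and 376 FPKM in the control library (-0.83), and G6pdx of the pentose phosphate pathway had 2.98 against 2.11 FPKM (0.36). Me2, the mitochondrial malic enzyme, had 2.25 FPKM in the Alb-Cre library and 0.968 FPKM in the control library (0.73), while Me1 remained 96.8% of the malic enzyme sum in the Alb-Cre library and 99.4% in the control library.

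Among 16 measured genes that control SREBP and ChREBP, Insig1 alone passed the limit, on the lower side, against 1.83% of all measured genes. Insig1 had 163 FPKM in the Alb-Cre library and 336 FPKM in the control library (log2 ratio -1.04). The list's median was -0.09, or 0.04 with centred ratios, under which Insig1 fell short of the limit. Mlxip, a relative of ChREBP also named MondoA, had 2.76 FPKM in the Alb-Cre library and 1.66 FPKM in the control library (0.50). Scap, which escorts SREBP out of the endoplasmic reticulum, had 52.9 FPKM in the Alb-Cre library and 50.04 FPKM in the control library, and the LXR gene Nr1h3 had 62.5 against 67.3 FPKM. Other genes known to respond to ChREBP went apart, with a median of -0.24. Of these 9, 2 were higher, against 3.75% of all measured genes, and 1 was lower, against 1.83%. Txnip, a thioredoxin-binding protein gene induced by glucose, had 246 FPKM in the Alb-Cre library and 56.9 FPKM in the control library (2.09). G6pc, glucose-6-phosphatase, had 367 FPKM in the Alb-Cre library and 178 FPKM in the control library (1.04), and Pklr was the lower gene. Of 8 LXR targets outside the pathway 0 passed the limit, and beside those shares such a count does not set them apart. Their median was 0.10, which was -0.10 with a minimum of 5 FPKM. Abcg1, a sterol exporter gene, had 3.42 FPKM in the Alb-Cre library and 1.24 FPKM in the control library (0.98) and passed the limit with centred ratios, with 0.1 FPKM added and after both libraries were brought to 1 sum. Cyp7a1, the rate-limiting enzyme of bile acid synthesis, had 43.7 FPKM in the Alb-Cre library and 75.7 FPKM in the control library (-0.78).

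Cholesterol synthesis and uptake is driven mainly by SREBP2. Its 23 genes were all measured and 0 passed the 2-fold limit. Of all measured genes, 1.83% passed it on the lower side and 3.75% on the higher side. At least 1.5-fold lower were 11 of the 23, against 5.8% of all measured genes and 407 of the 4964 well-expressed genes. The median log2 ratio was -0.58, beside -0.40 for the 32 synthesis genes. All of the cholesterol genes had more than 10 FPKM in both libraries, and the 27 synthesis genes that are well expressed had a median of -0.45. Values lay below 0 for 22 of the 23, against 69.3% of well-expressed genes. The highest ratio was 0.01, for Mvk, the mevalonate kinase gene, where the synthesis genes reached 2.72 for Scd2. Stard4, a sterol transfer protein gene, had 33.0 FPKM in the Alb-Cre library and 60.05 FPKM in the control library (-0.84). The difference between the lists has no test, since both come from the same pair of libraries.

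**Figure D4:**
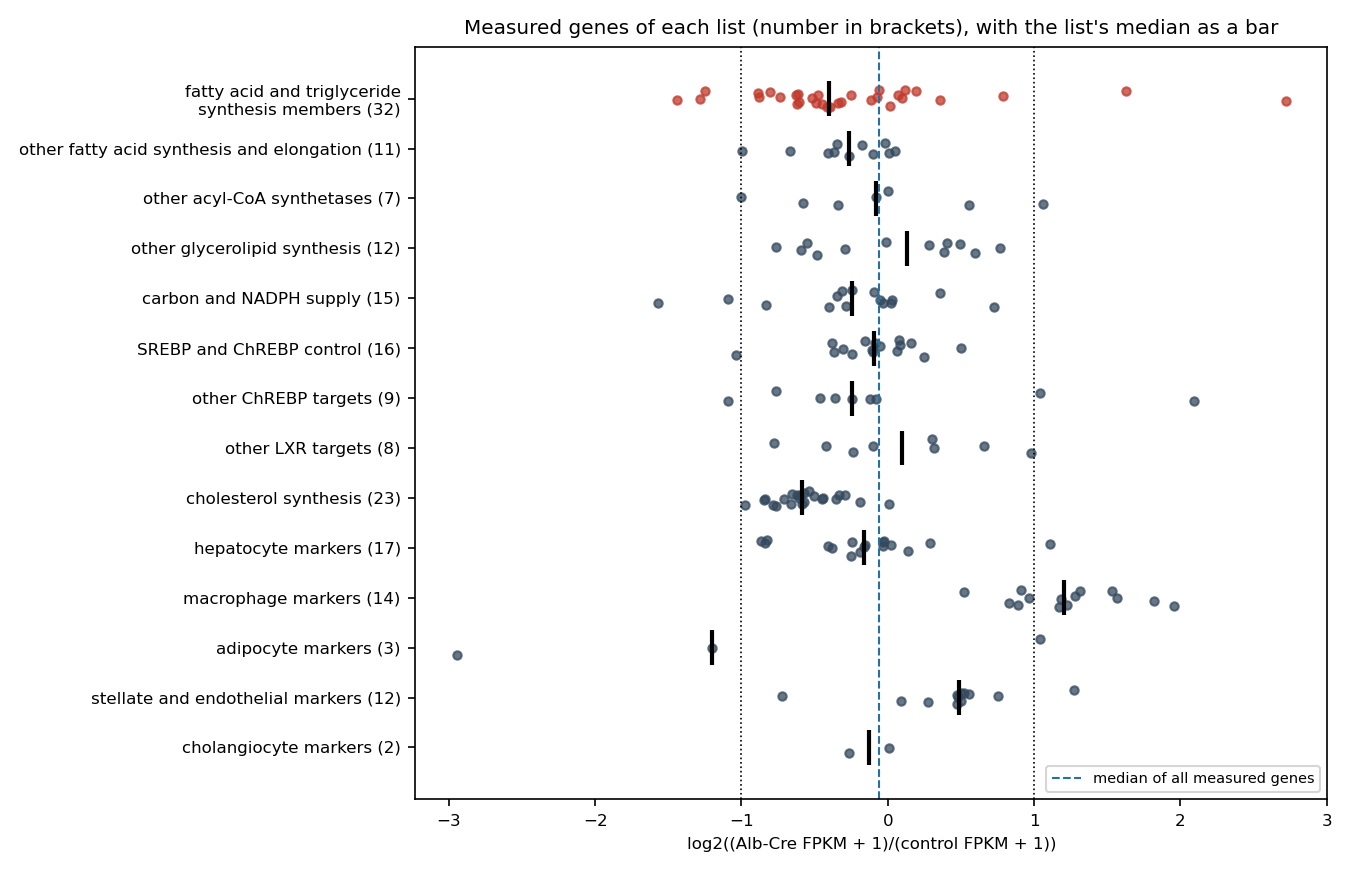
Log2 ratio of Alb-Cre over control for each measured gene of the synthesis members and of 13 other lists, with the number of measured genes in brackets and each list's median as a bar. The dashed line is the median of all measured genes, -0.06; the synthesis members have a median of -0.40, cholesterol synthesis -0.58 and the macrophage markers 1.21.

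In the authors' deposited table, 6 of the 32 genes had a p-value below 0.05 before adjustment, as did 5.78% of all measured genes. They were Scd2, Pnpla5, Me1, Srebf1, Thrsp and Pnpla3. After adjustment the q-value was 0.529 for Me1, 0.654 for Srebf1 and 0.662 for Thrsp in the authors' deposited table, and it was 0.999 for each of the 26 genes not among the 6. These values describe the pair of libraries.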

How the data were processed

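The authors deposited 1 table in the Cuffdiff layout, with an FPKM value per gene and library and the authors' p-value and q-value, per the file headers. FastQC, TopHat2 2.0.8, Cuffdiff 2.1.1 and mm10 are named in the submitters' processing notes, with no role or order. Library scaling, annotation and strand use are not given in the sources used here. Of 23283 rows, 18 had the status HIDATA or FAIL and were set aside, since a 0 there can be a failed estimate.

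Log2 ratios were computed with 1 FPKM added, for genes of status OK with 1 FPKM or more in at least 1 library. With 1 library per genotype no p-value was computed. The calling step was tested on simulated data. Members, lists, markers and steps were chosen with earlier results of these data known. All 34 members were to be named, and of each other list the genes past 2-fold and the 2 with the largest ratio in size; further genes were named after their values were seen, and some genes that the rule names are not reported here.

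Depth was read from low values of genes with 1 GENCODE vM21 transcript. Values times length gathered at 0.00742 FPKM kb in the Alb-Cre library and 0.00844 in the control library, taken as 1 fragment (195 genes each). If values were scaled by fragments alone, the Alb-Cre library was 1.14 times as deep. Fragment numbers in the text use the longest transcript, are approximate, and cover counting only. Shared 50-base stretches were searched on both strands of GENCODE vM21 transcripts. Alternatives were other pseudocounts, minimums, fold limits, statuses and scalings. Python 3.11.15, pandas 2.3.3, numpy 2.4.6 and matplotlib 3.10.9 were used.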

Additional observations from a re-analysis of the deposited data

How the results depend on the processing

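Thrsp, Me1 and Srebf1 stayed at least 2-fold lower and Scd2 at least 2-fold higher under pseudocounts of 0.1 and 5 FPKM, without a minimum or with one of 5 FPKM, with libraries rescaled to the same sum, with centred ratios and with other statuses. Pnpla5 did not: its log2 ratio was 0.57 with 5 FPKM added, and it was left out by the minimum of 5 FPKM. The count of higher genes was 1 in both cases and with a 4-fold limit. The count of lower genes was 11 with a 1.5-fold limit and 0 with a 4-fold limit. With 0.1 FPKM added, Pnpla3 (1.28) and Mogat1 (-1.06) passed the limit. The median of the 32 genes was -0.27 with centred ratios, which add 0.13 to each value by construction, and the mean was -0.24. Elovl1, Elovl2 and Acsl3 changed sign with centred ratios. The glycerolipid list had a median of -0.39 with a minimum of 5 FPKM, which leaves out its low genes. The cholangiocyte marker median of -0.13, from 2 genes, was 0.0081 with no minimum and with one of 5 FPKM, and 0.0056 with centred ratios. Acsl1, Insig1 and Pklr lay near the limit and were not called with centred ratios. No paired analysis was possible because each genotype has 1 library, and no library could be left out. How far livers of 1 genotype differ is hidden by the pooling.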

Other observations

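Genes next to the triglyceride route, picked after their values were seen, did not share 1 direction. The plasma membrane lipid phosphatase gene Ppap2b had 52.7 FPKM in the Alb-Cre library and 77.6 FPKM in the control library (log2 ratio -0.55), while Ppap2c had 29.6 against 19.2 FPKM (0.60) and Ppap2a had 14.4 against 10.6 FPKM (0.40). The fatty acid transport proteins that dominate the liver were nearly level: Slc27a2 had 747 FPKM in the Alb-Cre library and 745 FPKM in the control library, and Slc27a5 had 562 against 595 FPKM. Slc27a1, a form of muscle and fat, had 5.15 FPKM in the Alb-Cre library and 3.18 FPKM in the control library (0.56). Of the acetate and propionate synthetases beside Acss2, mitochondrial Acss3 had 5.09 FPKM in the Alb-Cre library and 8.09 FPKM in the control library (-0.58), and Acss1 was under 1 FPKM in both. None of these genes passed the 2-fold limit.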
